A study of Rattus norvegicus with 74 samples.

Results

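Mitochondria carry their own small genome, and almost every protein that copies, transcribes, processes and translates it is encoded in the nucleus. The genes followed here are 52 such nuclear genes in the rat. They were chosen by symbol for their known role, though with earlier results of these data known. Of the 52, 51 were found among the 30560 genes of the deposited tables. Of these, 7 act in transcription, 6 in copying and maintaining mitochondrial DNA, 14 in RNA processing, stability and decay, 9 as translation factors, and 15 are mitochondrial aminoacyl-tRNA synthetases. Fastkd5 was not found by its symbol. Vars2 carries the biotype pseudogene in the tables and the other 50 genes are listed as protein coding.

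All animals were male wild-type Wistar Kyoto rats, 9 weeks old when sampled, and all drank tap water with deuterium oxide (8% v/v). Trained rats (ExT) began treadmill running when 5 weeks old and continued through 4 weeks with 5 sessions weekly, at 20 m/min for 60 min a day after a first week of shorter and slower runs. Control rats (Sed) spent equal time on a stationary belt, and organs were collected 24 h after training ended. The inner red gastrocnemius, a hindlimb muscle, gave a whole-tissue library (SM) and a library of mitochondria isolated by antibody capture and exposed to RNase-A and proteinase-K (MT) from each of 30 rats, 15 per arm. The left ventricle wall of the heart (LV) was sequenced in 14 of these rats, 7 per arm. The question set by the series title is which RNAs of nuclear genes are found in muscle mitochondria without and with training. SM libraries were made from 50 ng and MT libraries from 10 ng of RNA with a Zymo kit, and LV libraries from 100 ng with an Illumina Ribo-Zero kit, so tissue cannot be told apart from kit and input in LV against SM, nor fraction from input in MT against SM.

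In mitochondria, the RNA polymerase Polrmt with Tfam and Tfb2m starts long transcripts that cover nearly the whole genome, and Tefm keeps the polymerase moving. RNase P and the enzyme Elac2 cut the transcripts at the tRNAs, Mtpap adds adenines, the Lrpprc and Slirp complex stabilises the mRNAs, and Pnpt1 with Supv3l1 degrades RNA. Translation then uses bacterial-type factors and a dedicated set of synthetases that charge the tRNAs. In muscle and heart this machinery makes core subunits of the respiratory chain.

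SM libraries held totals of 19477976 to 39401323 counts, MT libraries 530397 to 9988027 and LV libraries 54645657 to 75758777. The members together held 19612 to 45672 counts per SM library, 909 to 2363 per MT library and 86128 to 116201 per LV library. In MT, 39 to 50 members had at least 10 counts in a library, so MT values are the least precise. Symbols of vomeronasal and olfactory receptors, which muscle should hardly express, took a median of 1.69% of the nuclear-encoded counts of MT libraries and 0.00119% in SM. The summed skeletal muscle markers were at a median of 148108 CPM of nuclear-encoded counts in SM_Sed and 2890 in LV_Sed, and the summed heart markers at 49.9 and 48929. Training values in SM are also given within the rats numbered 2 to 16 and 17 to 32. Genes were not tested between these ranges. In bulk tissue, fewer cells of a type and less RNA per cell cannot be told apart.

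Levels below are library-size-normalised read counts (CPM) scaled by TMM (a scaling that assumes most genes do not differ) within the libraries compared. They are not scaled for transcript length, so they compare samples for a gene and not genes with each other. For each group the lowest, median and highest library is given. A gene is called when the edgeR quasi-likelihood test gives an adjusted p under 0.05 over all genes tested. Differences are log2 fold changes, the standard error of a fold change is written SE, and ± is the SD over libraries.

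**Figure D1:**
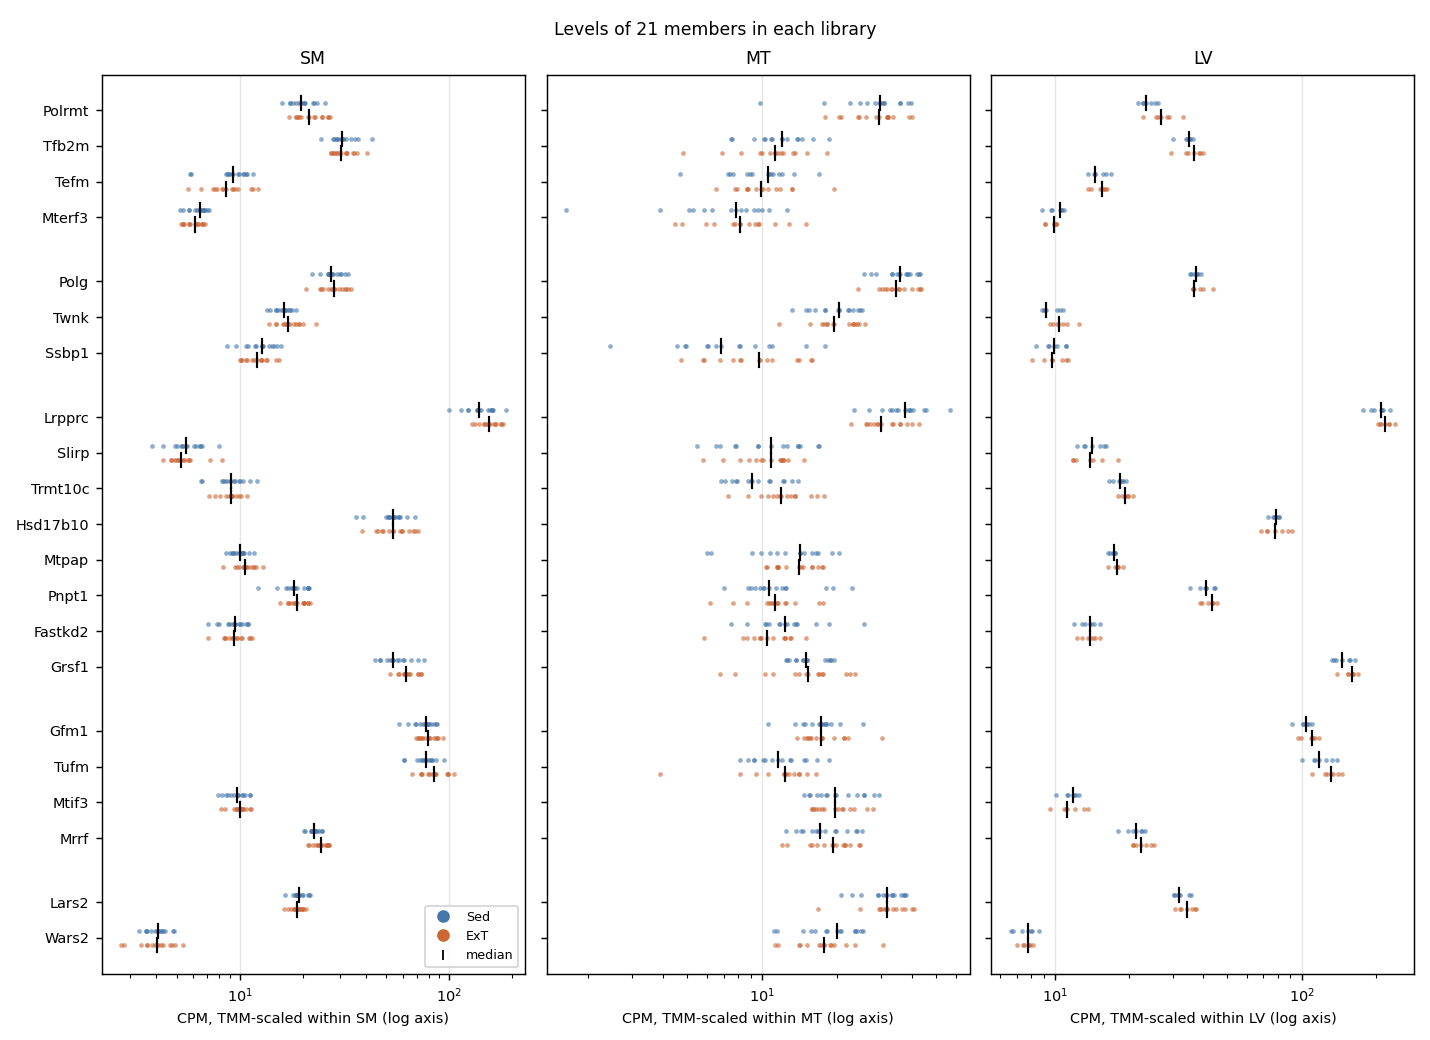
CPM of 21 members in each library (points), by arm, with the median as a black bar; each panel is scaled within its own tissue and has a log axis, and Hsd17b10 is not drawn in MT because it was too low to test there. Sed and ExT points overlap for every gene in every panel, and points spread most widely in MT.

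Training left no member past the threshold in whole muscle. Of 50 members tested in SM, 0 were called, against 0.206% of all 13570 genes (28 genes, 0.184% higher and 0.0221% lower). At an unadjusted p under 0.05 there were 7 members, beside 13.7% of all genes. The members' median difference was 0.06, against -0.01 for all genes, and 36 of 50 lay above 0, where 47.9% of all genes did. The differences ran from -0.09 to 0.20, so the farthest was 1.15-fold, with SEs of 0.039 to 0.124. DESeq2 and each alternative setting also called 0 members.

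Among the transcription factors, Polrmt was at 15.98, 19.7 and 25.6 CPM in SM_Sed and at 17.2, 21.4 and 27.02 CPM in SM_ExT. Its difference was 0.13 (SE 0.0704, adjusted p = 0.413), and the arms overlapped over most of their range. Tfb2m, which helps Polrmt open the promoter, was at 24.5, 30.7 and 42.7 CPM in SM_Sed and 27.3, 30.6 and 40.4 CPM in SM_ExT, a difference of 0.00 (95% interval -0.13 to 0.13). The medians of Tfb2m were nearly equal. The elongation factor Tefm was at 5.77, 9.25 and 11.6 CPM in SM_Sed and 5.64, 8.57 and 12.3 CPM in SM_ExT. Mterf3, of the mitochondrial termination factor family, was at 5.18, 6.44 and 7.12 CPM in SM_Sed and 5.25, 6.10 and 6.86 CPM in SM_ExT. For both Tefm and Mterf3 the ExT median was the lower of the pair, with differences of -0.07 (SE 0.100) and -0.07 (SE 0.0563), neither of them called.

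Of the factors that copy mitochondrial DNA, the polymerase subunit Polg was at 22.3, 27.2 and 33.1 CPM in SM_Sed and 20.7, 28.3 and 34.1 CPM in SM_ExT. The helicase Twnk was at 13.5, 16.4 and 18.7 CPM in SM_Sed and 13.9, 17.1 and 23.1 CPM in SM_ExT. The highest ExT libraries of Twnk lay above all Sed libraries, and its difference was 0.12 (SE 0.0596, adjusted p = 0.377). Ssbp1, which coats single-stranded DNA at the fork, was at 8.73, 12.8 and 15.8 CPM in SM_Sed and 9.99, 12.2 and 15.4 CPM in SM_ExT, a difference of -0.05. The mitochondrial topoisomerase Top1mt had an unadjusted p of 0.0186 and an adjusted p of 0.275, at 6.16 ± 0.672 CPM in ExT and 5.56 ± 0.533 CPM in Sed (n = 15 each, edgeR).

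Of the RNA processing members, 11 of 14 lay above 0 in SM. Lrpprc, which with Slirp keeps mitochondrial mRNAs stable, was at 100.5, 139.7 and 186 CPM in SM_Sed and 129, 156 and 181 CPM in SM_ExT. Slirp, its partner, was at 3.83, 5.56 and 7.96 CPM in SM_Sed and 4.29, 5.25 and 8.24 CPM in SM_ExT. The arms differed in opposite directions for the partners, by 0.14 (SE 0.0681) and -0.04 (SE 0.0907), and neither was called. Grsf1, a protein of the granules where new mitochondrial RNA is handled, was at 44.2, 54.2 and 76.2 CPM in SM_Sed and 52.2, 62.02 and 73.5 CPM in SM_ExT, a difference of 0.17 (SE 0.0661, adjusted p = 0.264). Both the lowest and the highest Grsf1 library were Sed. Within the ranges the Grsf1 difference was 0.23 in rats 2 to 16 and 0.12 in rats 17 to 32.

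Values for the RNase P subunits lay closer together. Trmt10c was at 6.54, 9.12 and 12.1 CPM in SM_Sed and 7.13, 9.08 and 10.8 CPM in SM_ExT. Hsd17b10, which is also a dehydrogenase of isoleucine breakdown, was at 35.8, 54.3 and 68.4 CPM in SM_Sed and 38.2, 54.3 and 71.2 CPM in SM_ExT. Over all rats the arms lay almost on top of each other for both, with 95% intervals of -0.16 to 0.12 and -0.11 to 0.22. Within the ranges the differences had opposite signs. In rats 2 to 16 they were 0.09 for Trmt10c and 0.27 for Hsd17b10, and in rats 17 to 32 -0.11 and -0.14. The poly(A) polymerase Mtpap was at 8.57, 10.02 and 11.7 CPM in SM_Sed and 8.34, 10.6 and 12.9 CPM in SM_ExT (difference 0.10). The RNA-degrading enzyme Pnpt1 was at 12.2, 18.2 and 21.4 CPM in SM_Sed and 15.5, 18.7 and 21.7 CPM in SM_ExT (difference 0.06). Fastkd2, needed for the large mitochondrial rRNA, was at 7.03, 9.48 and 10.98 CPM in SM_Sed and 7.08, 9.38 and 11.4 CPM in SM_ExT (difference 0.02). None of these passed the test.

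Among the translation factors, Tufm, which brings charged tRNAs to the ribosome, was at 60.9, 77.7 and 94.2 CPM in SM_Sed and 66.9, 84.7 and 105 CPM in SM_ExT. Its difference was 0.14 (SE 0.0637, adjusted p = 0.319), and it was 0.27 in rats 2 to 16 and 0.02 in rats 17 to 32. Gfm1, which moves the ribosome along, was at 57.9, 77.3 and 87.4 CPM in SM_Sed and 69.3, 79.4 and 93.3 CPM in SM_ExT. For both genes the lowest library was Sed and the highest ExT, with wide overlap between. The initiation factor Mtif3 was at 7.89, 9.67 and 11.2 CPM in SM_Sed and 8.12, 10.1 and 11.3 CPM in SM_ExT. Mrrf, which releases the ribosome from spent mRNA, was at 20.4, 22.6 and 24.8 CPM in SM_Sed and 21.2, 24.4 and 26.7 CPM in SM_ExT. Its arms were narrow, and the difference of 0.11 had an SE of 0.0409 and an adjusted p of 0.224.

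Of the synthetases, Lars2 for leucine was at 16.5, 19.2 and 21.6 CPM in SM_Sed and 16.3, 18.8 and 20.8 CPM in SM_ExT. Wars2 for tryptophan was at 3.29, 4.10 and 4.87 CPM in SM_Sed and 2.71, 4.05 and 5.35 CPM in SM_ExT. Their differences were -0.04 (SE 0.0422) and -0.02 (SE 0.0838), both inside the spread between libraries. Vars2 for valine had the lowest unadjusted p of any member, 0.00984, with an adjusted p of 0.222 and a difference of 0.20 (SE 0.0731). The values for Vars2 are uncertain because of its listed biotype. Tars2 for threonine had 0 or 1 count in every SM library and was not tested.

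The values in SM were not alike in the rat ranges, and the difference between ranges was not tested. In rats 2 to 16 the members' median difference was 0.10 with 38 of 50 above 0, and in rats 17 to 32 it was 0.02 with 30 above 0. No member was called in either range. An unadjusted p under 0.05 was found for 11 members beside 23.2% of all genes in the earlier range and for 0 members beside 6.02% in the later one, and 27 members lay above 0 in both. The members' share of nuclear-encoded counts was 0.147% ± 0.0210 in the 7 earlier Sed rats, 0.163% ± 0.0128 in the 8 later Sed rats, and 0.172% and 0.169% in the earlier and later ExT rats. The lowest share of all SM libraries, 0.112%, was that of Sed rat 8. Some cell type markers also had other medians in the arms of SM, with overlapping ranges. The 6 summed slow fibre markers had a median of 15489 CPM of nuclear-encoded counts in Sed (5184 to 32502) and 22167 in ExT (5671 to 35535). The 4 summed Schwann cell markers had a median of 37.5 in Sed (6.73 to 146) and 109 in ExT (25.8 to 197), and the 3 smooth muscle markers 263 (107 to 381) and 348 (238 to 602). All of these markers were detected, and their part in the members' values was not tested.

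In the heart, no member was called with training, and most lay slightly above 0. Of 51 members tested in LV, 0 were called, as were 0.0% of all 14488 genes. At an unadjusted p under 0.05 there were 4 members (Polrmt, Ears2, Vars2 and Twnk) and 5.90% of all genes, and DESeq2 called 0 members. The median difference was 0.06 against 0.00 for all genes, and 43 of 51 members lay above 0, where 50.0% of all genes did. Polrmt was at 21.7, 22.7, 22.8, 23.4, 24.6, 25.5 and 26.3 CPM in the 7 Sed rats. It was at 22.8, 25.7, 26.3, 27.01, 28.4, 29.1 and 33.1 CPM in the 7 ExT rats, so 4 ExT libraries lay above every Sed library while the lowest ExT library fell among the lower Sed ones. The difference was 0.21 (SE 0.0681, unadjusted p = 0.00755, adjusted p = 0.804, edgeR). Twnk was at 8.85, 9.06, 9.11, 9.20, 10.1, 10.4 and 10.7 CPM in Sed. In ExT, Twnk was at 9.51, 9.83, 10.2, 10.4, 10.8, 11.1 and 12.5 CPM, overlapping Sed over most of the range, with a difference of 0.14 (SE 0.0668).

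The other factors named above differed by less in LV. Among the RNA processing members, the median difference was 0.06 with 12 of 14 above 0. Lrpprc was at 177, 210.4 and 228 CPM in LV_Sed and 204, 218 and 239.9 CPM in LV_ExT, a difference of 0.10 (SE 0.0563). Grsf1 was at 133, 145 and 165 CPM in LV_Sed and 139, 160.4 and 170.1 CPM in LV_ExT, also 0.10 (SE 0.0574). Each had ExT and Sed libraries mixed through the middle of its range. Tufm was at 101, 117 and 139.5 CPM in LV_Sed and 111, 131 and 145 CPM in LV_ExT (0.12). Slirp was at 12.2, 14.2 and 16.2 CPM in LV_Sed and 11.9, 13.8 and 17.96 CPM in LV_ExT (-0.03). Over all members the LV differences ran from -0.23 (Tars2, 3 to 33 counts per library) to 0.27 (Ears2). Of the LV rats, 2 were numbered in the earlier range, 1 per arm, so no test within that range was possible. In the 12 rats numbered 17 to 32, 0 members were called, 15 had an unadjusted p under 0.05 beside 11.8% of all genes, 45 of 51 lay above 0 and the median difference was 0.09. With 1 library left out at a time, members with an unadjusted p under 0.05 numbered 2 to 11, with 2 without ExT rat 17 or Sed rat 20, 8 without ExT rat 14 and 11 without Sed rat 16, where 9.00% of all genes passed.

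Tfb2m was at 30.05, 34.8 and 36.1 CPM in LV_Sed and 29.4, 36.8 and 40.003 CPM in LV_ExT, a difference of 0.07 (SE 0.0610). Tefm was at 13.6, 14.6 and 16.8 CPM in LV_Sed and 13.6, 15.5 and 16.2 CPM in LV_ExT, a difference of 0.01 (SE 0.0569). Mterf3 was at 8.87, 10.5 and 10.8 CPM in LV_Sed and 9.07, 9.92 and 10.1 CPM in LV_ExT, a difference of -0.05 (SE 0.0550). The arms of these transcription factors overlapped. Polg was at 35.2, 37.4 and 38.98 CPM in LV_Sed and 36.1, 36.6 and 43.6 CPM in LV_ExT, a difference of 0.04 (SE 0.0460). Ssbp1 was at 8.37, 9.86 and 11.1 CPM in LV_Sed and 8.06, 9.76 and 11.3 CPM in LV_ExT, a difference of 0.01 (SE 0.0791). Neither of these replication factors separated the arms. Mtpap was at 16.3, 17.3 and 17.5 CPM in LV_Sed and 16.4, 17.8 and 18.9 CPM in LV_ExT, a difference of 0.05 (SE 0.0416). Pnpt1 was at 35.3, 40.8 and 44.5 CPM in LV_Sed and 38.7, 43.2 and 45.4 CPM in LV_ExT, a difference of 0.05 (SE 0.0527). Fastkd2 was at 11.98, 13.8 and 15.2 CPM in LV_Sed and 12.3, 13.9 and 15.3 CPM in LV_ExT, a difference of 0.02 (SE 0.0605). These RNA processing factors also had overlapping arms.

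The RNase P subunits follow. Trmt10c was at 16.5, 18.3 and 19.4 CPM in LV_Sed and 18.001, 19.2 and 20.7 CPM in LV_ExT, a difference of 0.09 (SE 0.0468). Hsd17b10 was at 73.2, 78.8 and 81.3 CPM in LV_Sed and 68.6, 77.7 and 91.2 CPM in LV_ExT, a difference of 0.02 (SE 0.0600). Their arms overlapped. Gfm1 was at 91.3, 104 and 110.0 CPM in LV_Sed and 96.5, 110.3 and 118 CPM in LV_ExT, a difference of 0.07 (SE 0.0523). Mtif3 was at 10.1, 11.8 and 12.5 CPM in LV_Sed and 9.58, 11.1 and 13.6 CPM in LV_ExT, a difference of 0.01 (SE 0.0724). Mrrf was at 18.03, 21.3 and 23.2 CPM in LV_Sed and 20.6, 22.3 and 25.3 CPM in LV_ExT, a difference of 0.10 (SE 0.0627). For these translation factors the arms overlapped. Lars2 was at 30.3, 31.8 and 35.5 CPM in LV_Sed and 30.6, 34.3 and 37.2 CPM in LV_ExT, a difference of 0.08 (SE 0.0532). Wars2 was at 6.61, 7.76 and 8.59 CPM in LV_Sed and 6.99, 7.75 and 8.13 CPM in LV_ExT, a difference of 0.01 (SE 0.0650). The synthetases overlapped too, and none of these members was called.

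In isolated mitochondria the members stayed centred on 0. Of 49 members tested in MT, 0 were called, as were 0.0% of all 19281 genes, and 4 members had an unadjusted p under 0.05 beside 4.73% of all genes. DESeq2 called 0 as well. The median difference was 0.00, 25 of 49 lay above 0, and the differences ran from -0.28 to 0.32. Trmt10c was at 6.85, 9.11 and 13.95 CPM in MT_Sed and 7.28, 11.9 and 17.7 CPM in MT_ExT, a difference of 0.32 (SE 0.147, unadjusted p = 0.0327). Lrpprc was at 23.5, 37.5 and 56.9 CPM in MT_Sed and 22.6, 30.1 and 42.7 CPM in MT_ExT, a difference of -0.21 (SE 0.0943). Neither survived adjustment (adjusted p = 0.9997 for both, edgeR), and both rest on few counts, 27 to 109 per library for Lrpprc. SEs were 0.086 to 0.184 in MT, wider than in SM, so smaller differences were detectable in whole muscle. Hsd17b10 had 1 to 15 counts in MT libraries and was not tested.

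The polymerase and the helicase were measured in MT as follows. Polrmt was at 9.82, 29.8 and 39.4 CPM in MT_Sed and 17.9, 29.4 and 39.9 CPM in MT_ExT, a difference of 0.00 (SE 0.120). Twnk was at 13.2, 20.3 and 25.1 CPM in MT_Sed and 11.7, 19.4 and 25.9 CPM in MT_ExT, a difference of 0.04 (SE 0.112). Sed and ExT libraries overlapped for both. Tfb2m was at 7.50, 11.98 and 18.5 CPM in MT_Sed and 4.82, 11.3 and 18.2 CPM in MT_ExT, a difference of -0.09 (SE 0.147). Tefm was at 4.65, 10.5 and 16.9 CPM in MT_Sed and 6.52, 9.86 and 19.4 CPM in MT_ExT, a difference of 0.05 (SE 0.156). Mterf3 was at 1.63, 7.83 and 12.5 CPM in MT_Sed and 4.48, 8.15 and 14.996 CPM in MT_ExT, a difference of 0.17 (SE 0.180). The arms of these transcription factors overlapped. Polg was at 25.6, 35.7 and 42.8 CPM in MT_Sed and 24.3, 34.3 and 43.5 CPM in MT_ExT, a difference of -0.03 (SE 0.0875). Ssbp1 was at 2.44, 6.81 and 17.8 CPM in MT_Sed and 4.70, 9.74 and 15.9 CPM in MT_ExT, a difference of 0.27 (SE 0.182). Neither of these replication factors separated the arms. Mtpap was at 6.01, 14.1 and 20.3 CPM in MT_Sed and 10.3, 14.1 and 17.5 CPM in MT_ExT, a difference of 0.07 (SE 0.141). Pnpt1 was at 7.03, 10.6 and 22.98 CPM in MT_Sed and 6.18, 11.3 and 17.5 CPM in MT_ExT, a difference of -0.09 (SE 0.150). Fastkd2 was at 7.52, 12.3 and 25.6 CPM in MT_Sed and 5.83, 10.4 and 14.996 CPM in MT_ExT, a difference of -0.28 (SE 0.147). These RNA processing factors also had overlapping arms.

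Slirp was at 5.48, 10.8 and 16.9 CPM in MT_Sed and 5.78, 10.8 and 14.7 CPM in MT_ExT, a difference of -0.07 (SE 0.154). Grsf1 was at 12.5, 14.9 and 19.4 CPM in MT_Sed and 6.76, 15.3 and 23.6 CPM in MT_ExT, a difference of -0.01 (SE 0.134). Tufm was at 8.13, 11.6 and 18.5 CPM in MT_Sed and 3.89, 12.4 and 16.4 CPM in MT_ExT, a difference of 0.02 (SE 0.144). Tufm had 4 to 31 counts per MT library. Gfm1 was at 10.6, 17.1 and 25.3 CPM in MT_Sed and 13.7, 17.2 and 30.1 CPM in MT_ExT, a difference of 0.05 (SE 0.120). Mtif3 was at 14.8, 19.5 and 29.4 CPM in MT_Sed and 15.8, 19.6 and 27.7 CPM in MT_ExT, a difference of -0.08 (SE 0.115). Mrrf was at 12.5, 17.02 and 25.2 CPM in MT_Sed and 11.95, 19.2 and 24.7 CPM in MT_ExT, a difference of 0.09 (SE 0.119). For these translation factors the arms overlapped. Lars2 was at 20.7, 31.8 and 37.9 CPM in MT_Sed and 16.8, 31.8 and 40.6 CPM in MT_ExT, a difference of 0.05 (SE 0.0942). Wars2 was at 11.2, 19.9 and 25.3 CPM in MT_Sed and 11.2, 17.7 and 30.6 CPM in MT_ExT, a difference of -0.08 (SE 0.126). The synthetases overlapped too, and none of these members was called.

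**Figure D2:**
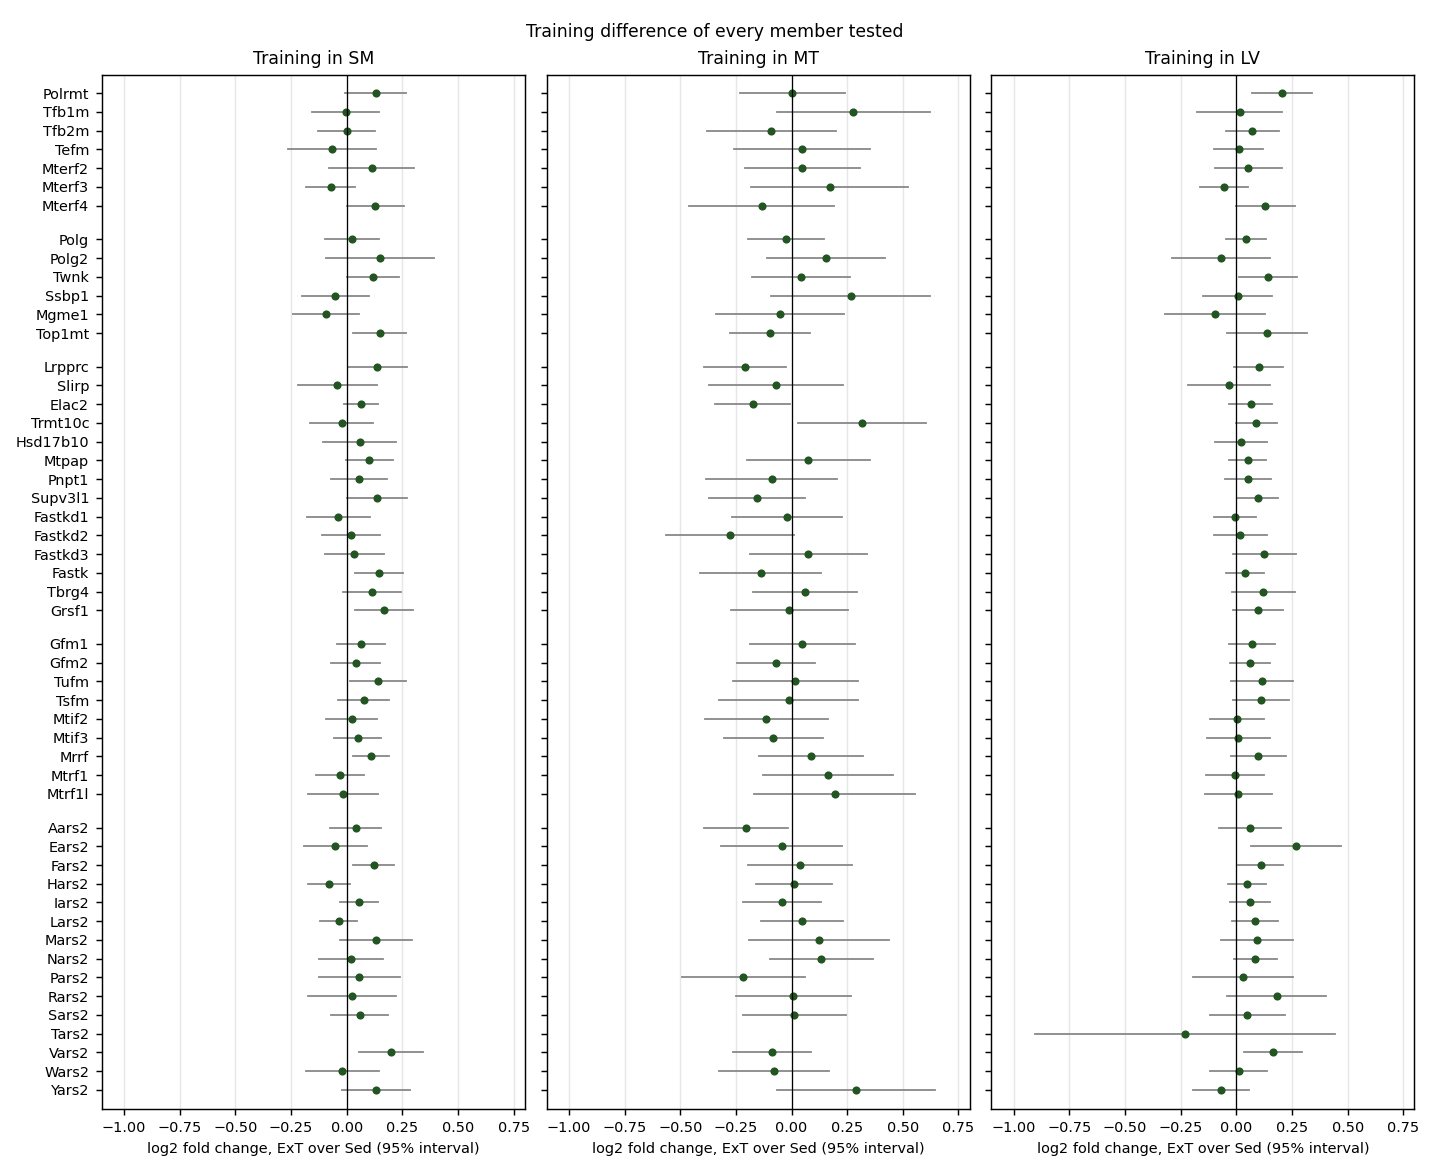
Log2 fold change of ExT over Sed (points) with 95% intervals for every member tested in SM, MT and LV, ordered by role from transcription to synthetases. Most SM and LV points lie just right of 0 (36 of 50 and 43 of 51), those of MT lie on both sides, and no member was called.

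No member passed the test of a difference in training response between kinds of sample. Of 50 members, 0 were called between MT and SM, beside 0.0181% of all 27684 genes (0.00361% higher, 0.0144% lower). An unadjusted p under 0.05 was found for 9 members and 8.50% of all genes. The lowest p was that of Lrpprc, with an interaction of -0.38 (SE 0.124, unadjusted p = 0.00317, adjusted p = 0.348, edgeR). Of 51 members, 0 were called between LV and the SM libraries of the same rats, where 0.0% of 15049 genes were, and an unadjusted p under 0.05 was found for 3 members (Ears2, Tefm and Yars2) and 4.57% of all genes. DESeq2 called 0 members in either test. These tests share the SM libraries.

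The heart and the red gastrocnemius held different amounts of many members, in both directions. Of 50 members tested in Sed rats, 24 were higher and 13 lower in LV than in SM, while 78.7% of all 14367 genes were called (40.0% higher, 38.6% lower). In ExT rats again 24 were higher and 13 lower, beside 79.3% of all 14338 genes (39.7% higher, 39.5% lower). The members' called share, 37 of 50, lies near that background and says nothing particular about them. The same 23 members were higher and the same 12 lower in both arms. Polg (higher) and Mtrf1 (lower) were called in Sed rats only, and Tbrg4 (higher) and Yars2 (lower) in ExT rats only, which was not tested as a difference. The median difference of the members was 0.17 in Sed and 0.18 in ExT rats, against 0.04 and 0.01 for all genes.

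RNA processing members were mostly higher in the heart, 10 of 14 in Sed and 11 of 14 in ExT rats, with 1 lower (Fastk). Slirp was at 4.62, 6.03 and 8.57 CPM in SM_Sed and 11.1, 13.1 and 14.7 CPM in LV_Sed. In ExT rats it was at 4.59, 5.47 and 6.15 CPM in SM and 10.9, 12.9 and 16.9 CPM in LV. Every LV library lay above every SM library, with differences of 1.08 (SE 0.109, adjusted p = 2.2e-08) and 1.25 (SE 0.103). Grsf1 was at 57.8, 64.5 and 82.05 CPM in SM_Sed and 120.4, 134 and 155 CPM in LV_Sed, again without overlap. Its differences were 1.06 in Sed and 1.03 in ExT rats. Pnpt1 was 0.86 and 0.96 higher on the log2 scale, Trmt10c 0.71 and 0.91, and Mtpap 0.56 and 0.59, each without overlap between tissues. Lrpprc, the partner of Slirp, was only 0.21 (SE 0.0781) and 0.28 (SE 0.0721) higher, and its libraries overlapped. Supv3l1, the helicase that works with Pnpt1, was not called, at 0.09 and 0.10. Fastk, the founding member of the FASTK family, fell by 0.52 and 0.61 on the log2 scale from SM to LV, while its relatives Fastkd1, Fastkd2 and Fastkd3 were higher in both arms.

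The translation factors split. Tsfm, which recharges Tufm with GTP, was at 9.45, 11.9 and 12.99 CPM in SM_Sed and 21.1, 24.9 and 26.04 CPM in LV_Sed. In ExT rats Tsfm was at 11.1, 11.2 and 12.3 CPM in SM and 20.3, 27.1 and 28.2 CPM in LV. The tissues stood well apart, by 1.08 (SE 0.0765, adjusted p = 1.1e-10) and 1.17 (SE 0.0714). Tufm was 0.38 and 0.47 higher, Gfm2, a ribosome recycling factor, 0.38 and 0.45, and Gfm1 0.19 and 0.30. Mrrf, which works with Gfm2, went the other way at -0.32 and -0.31, as did the release factor Mtrf1l at -0.38 and -0.43. Scaled by library totals, neither was called in either arm, Mrrf at -0.09 and -0.11 and Mtrf1l at -0.14 and -0.24, so no translation factor was then lower. The initiation factors Mtif2 and Mtif3 were not called in either arm.

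Of the transcription group, 3 of 7 were higher in LV and 0 lower in each arm. Mterf2, of the termination factor family, had the largest difference of all members in Sed rats, 1.23 (SE 0.0911), and 1.13 (SE 0.108) in ExT rats. It was at 3.40, 3.96 and 4.81 CPM in SM_Sed and 8.22, 9.19 and 11.04 CPM in LV_Sed, so the lowest heart library lay far above the highest muscle library. Tefm was 0.46 and 0.70 higher and Mterf3 0.50 and 0.49. The polymerase Polrmt was not called, with 95% intervals of -0.14 to 0.15 in Sed and -0.16 to 0.20 in ExT rats.

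Among the replication factors, 3 of 6 were lower in the heart in each arm. Top1mt was at 5.02, 5.65 and 6.76 CPM in SM_Sed and 2.52, 2.84 and 3.11 CPM in LV_Sed, and Twnk at 14.95, 17.6 and 20.1 and 8.23, 8.48 and 9.90 CPM. For both, every heart library lay below every muscle library in both arms. Top1mt differed by -1.07 and -1.13, Twnk by -0.97 (SE 0.0745) and -0.94 (SE 0.0977), and Ssbp1 by -0.53 and -0.33, the latter not called with library totals (-0.14). Polg2, the accessory subunit of the DNA polymerase, was the exception called in both arms in the other direction, at 0.71 and 0.54, on 21 to 78 counts per SM library.

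Synthetases went both ways, 5 higher and 6 lower of 14 in Sed rats, 5 and 7 in ExT rats. Fars2 for phenylalanine was at 13.1, 13.7 and 15.4 CPM in SM_Sed and 20.8, 23.8 and 26.6 CPM in LV_Sed, a difference of 0.82 (SE 0.0653). Rars2 for arginine was at 4.38, 4.75 and 7.19 CPM in SM_Sed and 2.11, 2.52 and 3.39 CPM in LV_Sed, a difference of -1.02 (SE 0.142), and -0.77 (SE 0.120) in ExT rats. Neither gene overlapped between tissues. Wars2, Lars2, Nars2 and Iars2 were also higher in the heart and Vars2, Ears2, Aars2, Sars2 and Hars2 lower, in both arms. The ExT call of Hars2 (-0.31) was lost with library totals (-0.12). Tars2 had 3 to 33 counts in LV libraries against 0 or 1 in SM.

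**Figure D3:**
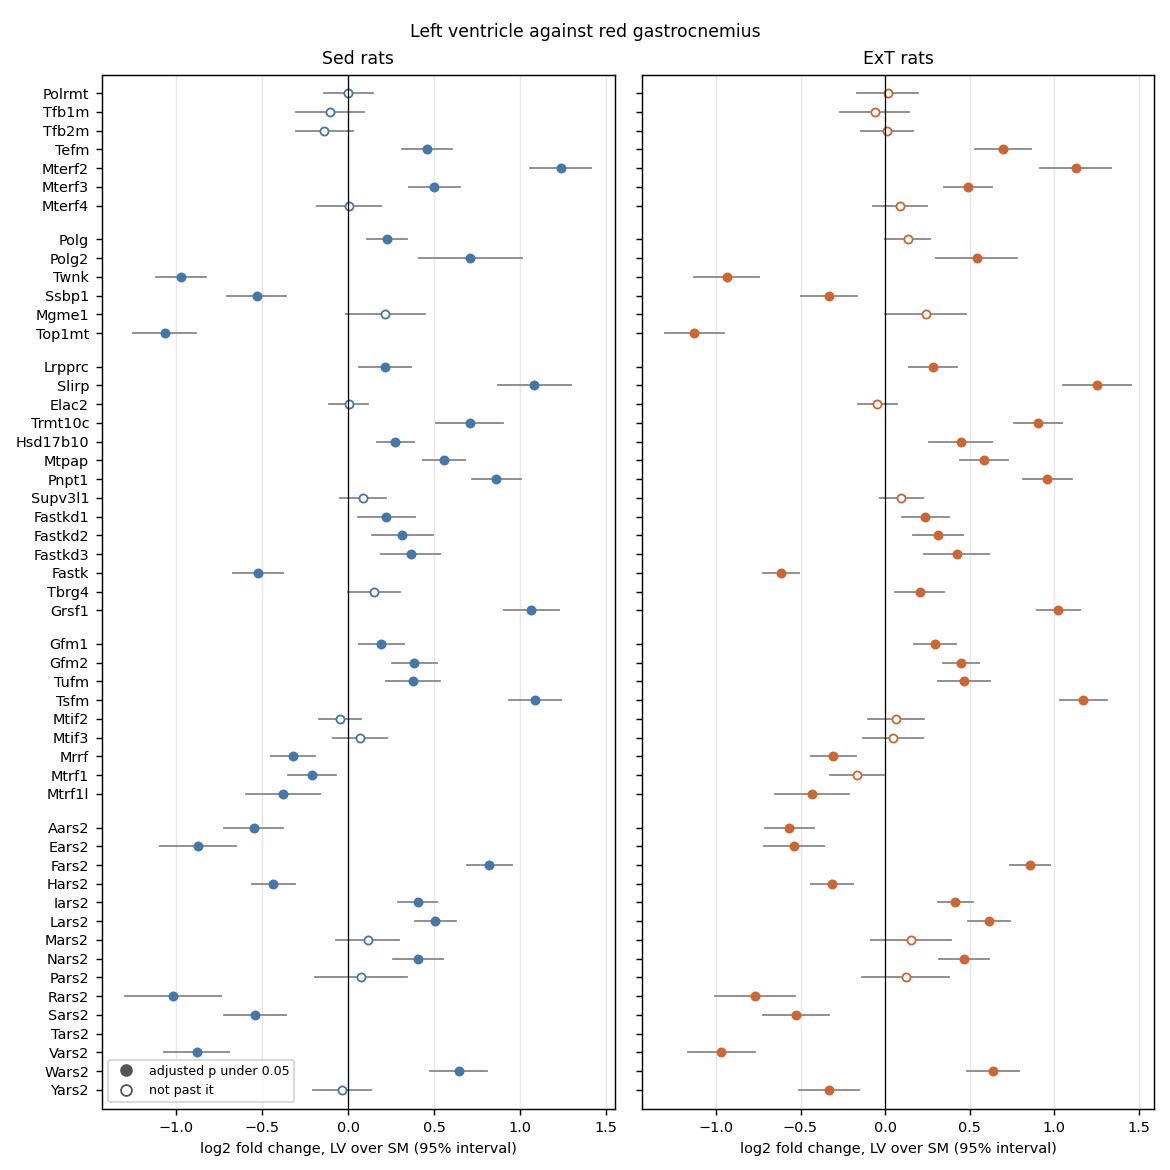
Log2 fold change of LV over SM (points, with 95% intervals) for 50 members in Sed and ExT rats, ordered by role; filled points passed an adjusted p of 0.05, and Tars2, not tested, has no point. RNA processing members lie mostly right of 0, whereas Twnk, Top1mt, Rars2 and Fastk lie left of it in both arms.

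Scaling by library totals in place of TMM raised the median of all genes to 0.28 (Sed) and 0.21 (ExT). The split of all called genes moved with it from 5750 higher of 11301 to 7226 higher of 11522 in Sed rats. The members were then 35 higher and 10 lower in Sed rats, and 33 and 8 in ExT rats. Of the 37 members called in each arm, 34 in Sed and 32 in ExT rats kept their call and direction under all the scalings tried. Those that did not were Mrrf, Mtrf1 and Mtrf1l in Sed rats and Mrrf, Mtrf1l, Hars2, Ssbp1 and Yars2 in ExT rats, all lower with TMM. Under library totals, members above 0 rose from 33 to 38 of 50 in Sed and from 34 to 37 in ExT rats. Mtif2, Mtrf1 and Yars2 were among those that changed sign in Sed rats. Summed endothelial markers had medians of 644 CPM of nuclear-encoded counts in SM_Sed and 1036 in LV_Sed, and their part in these differences was not tested.

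The promoters of 4 of these members are printed because the heart held more of Slirp and Tsfm and less of Twnk and Rars2 than muscle did, with no overlap between libraries in either arm. The sequences are RefSeq's for GRCr8, matched by symbol only, and run from 250 bases before to 50 after the start of the gene. Capitals mark matches, on either strand, to the ETS motif CCGGAAG, the NRF1 motif and the YY1 motif AAGATGGCG, motifs of factors known to bind promoters of mitochondrial genes.
Slirp (GRCr8 chr6:112819434-112819733, + strand): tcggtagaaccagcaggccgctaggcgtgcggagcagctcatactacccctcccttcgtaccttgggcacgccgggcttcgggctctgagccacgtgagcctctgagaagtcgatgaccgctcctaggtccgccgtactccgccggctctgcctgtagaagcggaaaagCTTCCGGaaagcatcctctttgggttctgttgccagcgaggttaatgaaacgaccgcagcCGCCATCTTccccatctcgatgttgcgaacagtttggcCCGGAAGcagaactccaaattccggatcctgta
Tsfm (GRCr8 chr7:64738452-64738751, - strand): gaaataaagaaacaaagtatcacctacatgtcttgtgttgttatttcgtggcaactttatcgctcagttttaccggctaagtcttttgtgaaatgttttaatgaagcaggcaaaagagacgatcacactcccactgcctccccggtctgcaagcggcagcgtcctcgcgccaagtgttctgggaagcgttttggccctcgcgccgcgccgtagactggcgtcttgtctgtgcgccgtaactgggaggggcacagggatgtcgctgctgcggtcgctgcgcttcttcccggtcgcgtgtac
Twnk (GRCr8 chr1:253817314-253817613, + strand): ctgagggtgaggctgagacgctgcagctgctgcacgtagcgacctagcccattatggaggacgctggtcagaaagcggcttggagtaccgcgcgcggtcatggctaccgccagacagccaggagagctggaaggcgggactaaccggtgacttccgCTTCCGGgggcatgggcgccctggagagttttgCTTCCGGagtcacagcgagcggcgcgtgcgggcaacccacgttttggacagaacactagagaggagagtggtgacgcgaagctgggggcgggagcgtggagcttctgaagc
Rars2 (GRCr8 chr5:53977623-53977922, + strand): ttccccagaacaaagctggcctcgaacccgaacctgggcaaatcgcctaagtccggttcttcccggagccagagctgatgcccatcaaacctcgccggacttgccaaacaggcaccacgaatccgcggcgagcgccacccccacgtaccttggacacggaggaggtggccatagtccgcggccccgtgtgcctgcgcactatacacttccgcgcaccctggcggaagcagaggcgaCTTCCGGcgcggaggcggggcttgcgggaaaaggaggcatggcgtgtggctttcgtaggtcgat
Slirp held 2 ETS matches and 1 YY1 match, Twnk 2 ETS matches, Rars2 1 ETS match and Tsfm 0 matches to any of the motifs. A promoter entry was matched for 45 of the 51 members. Of these, 14 held the ETS motif (31.1%, against 8.75% of all 33469 promoters in the table), 4 the NRF1 motif (8.89% against 4.25%) and 5 the YY1 motif (11.1% against 1.73%). The ETS motif stood in promoters of members higher in the heart (Slirp, Tefm, Iars2), lower (Twnk, Rars2, Ssbp1, Fastk, Hars2, Sars2, Mtrf1l), called in Sed rats only (Polg) and not called in either arm (Polrmt, Mtif2, Pars2). Members were counted once by symbol over their 48 entries and the background by entry, whether or not expressed here, so these shares differ in unit. A match describes letters in a window and not a bound site, and no test was made of it.

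Isolated mitochondria and whole muscle differed for nearly every gene, and at full depth the members sat low among them. With TMM, 94.8% of 22842 genes were called in Sed rats (61.7% higher, 33.1% lower) and 94.3% of 21312 in ExT rats (59.3% higher, 35.0% lower). Of 50 members, 8 were higher and 39 lower in MT in Sed rats, and 7 and 39 in ExT rats. The median of all genes was 1.81 and 1.31 and that of the members -1.01 and -0.98, so all 50 members in Sed and 49 of 50 in ExT rats lay below the median of all genes, where 50.0% of all genes lie. Within SM only 13570 genes passed the count filter, so many of the 22842 and 21312 genes entered through their MT counts. With no count filter the median of all genes was 3.44 in Sed and 3.49 in ExT rats. A place below such a median therefore cannot be read as particular to the members. The direction against 0 depended on the scaling. With library totals, 28 members were higher and 7 lower in Sed rats, 24 and 7 in ExT rats, 26 members changed sign in each arm, and the median of all genes was 3.43 and 2.92. Still, 50 and 49 members lay below that median. Summed, the members took a mean of 0.220% of nuclear-encoded counts in MT_Sed and 0.155% in SM_Sed. In ExT rats these shares were 0.216% and 0.170%, so the sum was higher in MT on this scale. With libraries thinned to the smallest total, 27 members in Sed and 21 in ExT rats remained testable, among 7551 and 5205 genes. Of these, 15 and 8 lay below the median of all genes, and their own median relative to it was -0.07 and 0.15, against -2.82 and -2.29 for 50 members unthinned. The low position among all genes was therefore not seen in the members and genes left after thinning.

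Hsd17b10 and Tufm were lowest in MT relative to whole muscle. Hsd17b10 was at 58.2, 88.1 and 117 CPM in SM_Sed and 0.811, 2.30 and 4.77 CPM in MT_Sed, which rests on 2 to 15 counts per MT_Sed library. Tufm was at 98.9, 124 and 161 CPM in SM_Sed and 4.77, 6.996 and 10.95 CPM in MT_Sed. Hsd17b10, too low to test within MT, passed the count filter here through its SM libraries, so no p-value is given for it. It is included in the 39 members counted as lower in each arm. The difference was -5.05 (SE 0.120) for Hsd17b10 and -4.08 (SE 0.0960) for Tufm, and in ExT rats -5.23 and -4.18. Gfm1 (-3.53 and -3.53), Fastk (-3.37 and -3.63) and Lrpprc (-3.32 and -3.64) followed in Sed and ExT rats. In every rat, whole muscle held more of Tufm, Gfm1, Fastk and Lrpprc than its own mitochondria. Hsd17b10 and these genes were also lower with library totals, Tufm at -2.48 and Hsd17b10 at -3.46 in Sed rats.

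Polg2 stood at the other end. It was at 1.75, 2.61 and 4.74 CPM in SM_Sed and 5.85, 7.11 and 10.8 CPM in MT_Sed, and at 1.52, 3.14 and 3.79 and 5.21, 7.58 and 12.6 CPM in the ExT rats. Mitochondrial libraries lay above whole muscle in 15 of 15 rats of each arm, by 1.59 (SE 0.131) and 1.62 (SE 0.139), on 13 to 36 counts per MT library. Pars2 for proline (1.15 and 0.90), Top1mt (1.00 and 0.78), Wars2 (0.84 and 0.81) and Mterf2 (0.81 and 0.77) were also higher in both arms. Relative to the median of all genes Polg2 was at -0.22 in Sed and 0.31 in ExT rats, above that median in ExT rats.

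**Figure D4:**
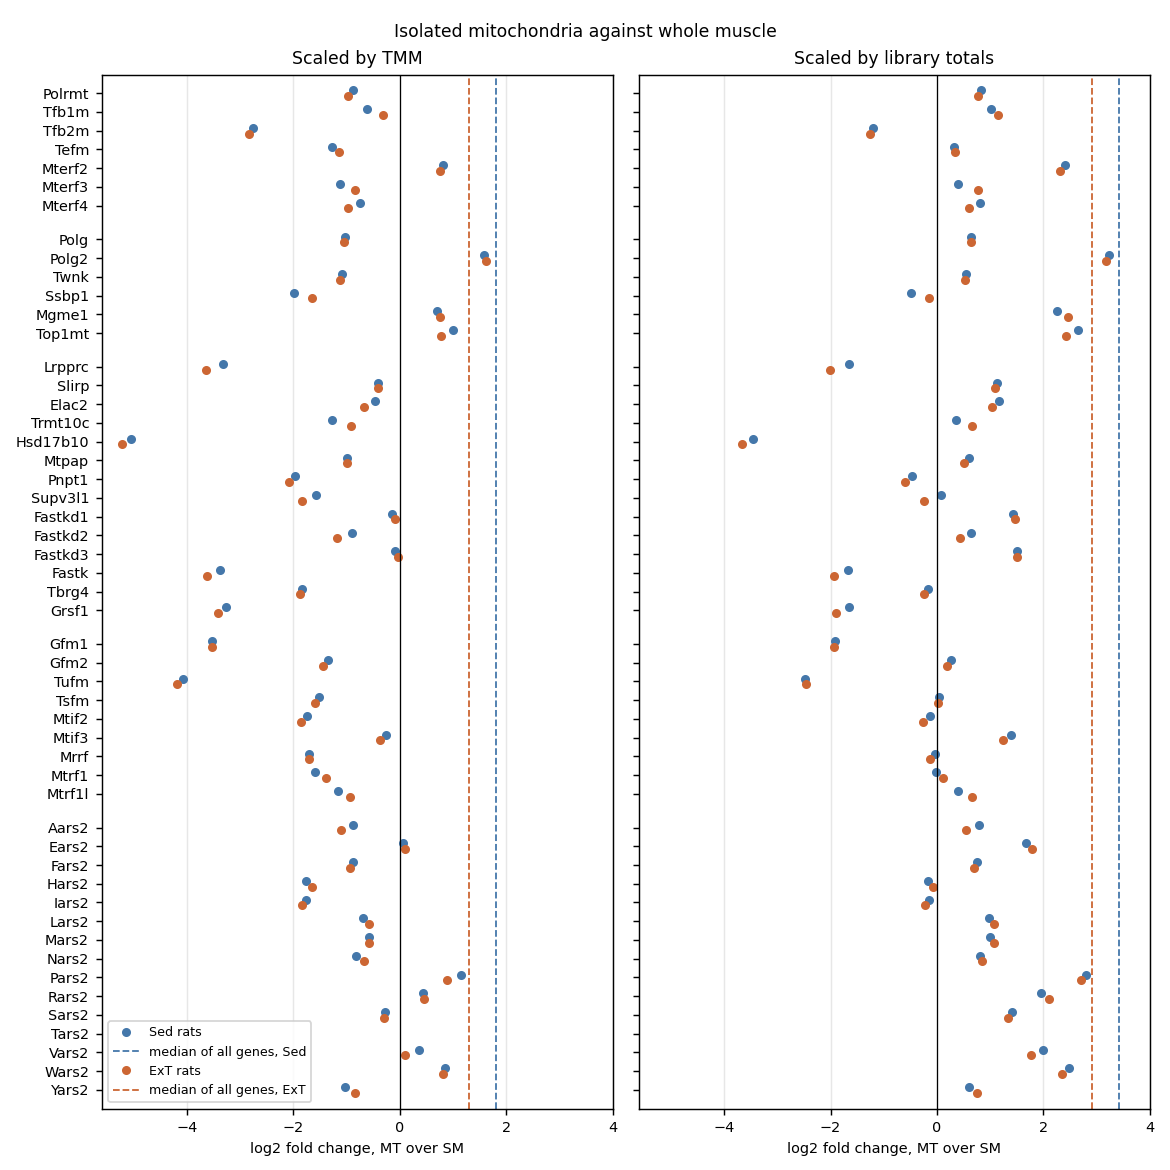
Log2 fold change of MT over SM for 50 members (points) in Sed and ExT rats, with TMM (left) and library totals (right); dashed lines are the median of all genes tested. The points shift right as a block between the panels, by which 26 members per arm change sign, and all but Polg2 in ExT rats stay left of the dashed lines.

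The members were also flatter in MT than in whole tissue. Across 50 members, the SD of the log2 group medians was 1.44 in SM_Sed, 0.79 in MT_Sed and 1.56 in LV_Sed. The highest group median was 84.8 times the lowest in SM_Sed and 10.2 times in MT_Sed. The lowest in MT_Sed was that of Hsd17b10, too low to test within MT. This spread was not computed for all genes, so it cannot be read as particular to the members. As a description across 50 members, which differ in length and share libraries, Spearman's rho of the medians was 0.383 between SM_Sed and MT_Sed, 0.915 between SM and LV in Sed rats, and 0.975 between MT_Sed and MT_ExT. The receptor genes that muscle should hardly express took 1.69% of nuclear-encoded counts in MT against 0.00119% in SM. Their part in the members' MT values was not tested.

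Some members that work together varied together over the 30 SM libraries. For 8 partner pairs, Pearson's r was computed on log2(CPM + 0.5) with a permutation test adjusted over the pairs. Gfm1 and Tufm had r = 0.862 (adjusted permutation p = 8.0e-05, unadjusted p = 1.0e-05, the smallest these permutations can give) and rho = 0.819 (adjusted p = 8.0e-05). Here and below, r was also computed without the 2 libraries farthest from the median of the first gene. Leaving them out narrows the range of that gene, which can itself lower r. Without Sed rats 8 and 24, r was 0.798. With all libraries r was 0.834 under library totals, and with TMM 0.886 in rats 2 to 16 and 0.797 in rats 17 to 32. The pooled 0.862 was the highest r among all 1225 pairs of members. The median over these pairs was 0.169 over all rats, 0.303 in rats 2 to 16 and 0.106 in rats 17 to 32. Their upper quartile was 0.346, 0.501 and 0.313. The permutation test compares r with no correlation, so whether partners vary together more than other members do was not tested.

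Tufm and its exchange factor Tsfm had r = 0.649 (adjusted permutation p = 5.6e-04, unadjusted 1.4e-04) and rho = 0.537 (adjusted p = 0.0115). With library totals r was 0.604. With TMM r was 0.532 without rats 8 and 24. In rats 17 to 32 alone it was 0.511 with an adjusted permutation p of 0.0872, and in rats 2 to 16 it was 0.768. Without the 2 farthest libraries of each range, r was 0.175 in rats 17 to 32 (without ExT rat 22 and Sed rat 24). It was 0.618 in rats 2 to 16 (without ExT rat 5 and Sed rat 8). The r in the later range thus depended on the 2 libraries left out.

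The RNase P subunits Trmt10c and Hsd17b10 had a pooled r of 0.400 (adjusted permutation p = 0.0549, unadjusted 0.0274) and a rho of 0.431 (adjusted p = 0.0461). With library totals r was 0.313 (adjusted permutation p = 0.171) and rho 0.211 (adjusted p = 0.47), neither past the threshold. The ranges were run with TMM only. Within the ranges r was higher, 0.686 in rats 2 to 16 (adjusted permutation p = 0.0143) and 0.746 in rats 17 to 32 (adjusted permutation p = 0.00364). Without the 2 farthest libraries, Sed rats 8 and 16, r was 0.298 pooled and 0.539 in rats 2 to 16, where the median over all pairs was also higher. In rats 17 to 32 it was 0.746 without Sed rats 19 and 20.

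Pnpt1 and Supv3l1 had r = 0.522 (adjusted permutation p = 0.0150, unadjusted 0.00561), but rho was 0.258 (adjusted p = 0.269). The r fell to 0.196 without Sed rats 8 and 12, so its size depended on those libraries. With library totals r was 0.529 (adjusted permutation p = 0.0137) and rho 0.277. The other 4 pairs did not pass. Lrpprc and Slirp had r = 0.333 (adjusted permutation p = 0.116), Polg and Polg2 0.0805 (adjusted 0.672), and Twnk and Ssbp1 0.145 (adjusted 0.510). Polrmt and Tfb2m had r = -0.309 (adjusted permutation p = 0.129), also not past the threshold. Their r was -0.142 with library totals, and with TMM 0.129 in rats 2 to 16 and -0.642 in rats 17 to 32 (adjusted permutation p = 0.0204).

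**Figure D5:**
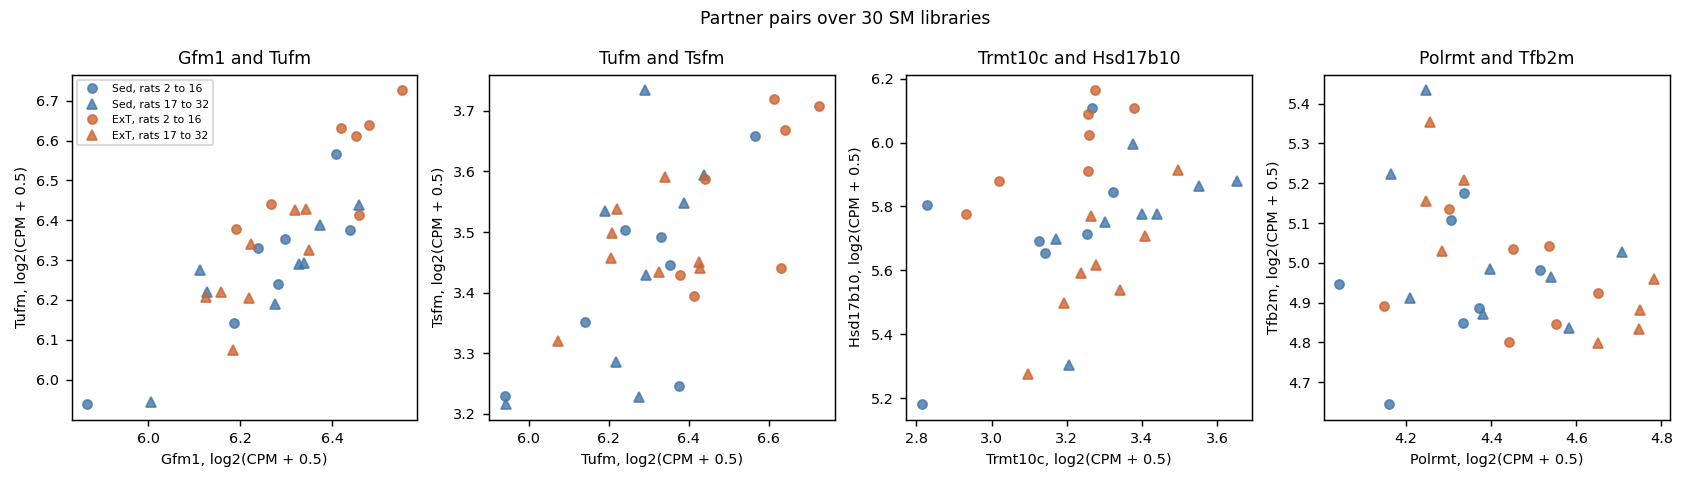
Log2(CPM + 0.5) of 4 partner pairs in 30 SM libraries, coloured by arm, with circles for rats 2 to 16 and triangles for rats 17 to 32. Gfm1 and Tufm rise together (r = 0.862), Trmt10c and Hsd17b10 rise together within each range, and Polrmt and Tfb2m do not.

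The other genes of the pathway gave these counts. Of 57 other genes for mitochondrial DNA upkeep, tRNA and rRNA modification and ribosome assembly, 53 had a single row in the tables and 52 were tested in each comparison, Nsun4 with 2 rows being left out. Training called 0 of them in SM, MT or LV, at 4, 2 and 6 with an unadjusted p under 0.05. In LV against SM, 26 were higher and 15 lower in Sed rats, and 28 and 14 in ExT rats, near the 78.7% and 79.3% of all genes called. With library totals these were 33 and 7, and 32 and 6. In MT against SM, 8 were higher and 37 lower in Sed rats, and 8 and 35 in ExT rats, with medians of -0.74 and -0.79 against 1.81 and 1.31 for all genes. Here too the direction depended on the scaling, with 32 higher and 8 lower in Sed and 28 and 6 in ExT rats under library totals. Of the 25 and 16 still testable after thinning, 14 and 8 lay below the median of all genes, against 50 and 47 of 52 unthinned. Tfam, which packages mitochondrial DNA and bends its promoters for Polrmt, differed by 0.02 with training in SM and by -2.51 between MT and SM in Sed rats.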

How the data were processed

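RNA of 74 samples (30 SM, 30 MT and 14 LV libraries) was sequenced after ribosomal RNA depletion. The authors deposited counts of reads per gene for 30560 genes in 3 tables, and samples were matched to columns by title. Per the submitters' processing notes, FastQC 0.74, cutadapt 4.6, STAR 2.7.11a, HTSeq and the build mRatBN7.2 were used; their order, the annotation and the strand setting are not given in the sources used here, so reads of overlapping or antisense genes cannot be assigned with certainty.

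The counts were tested in R 4.3.3 with edgeR 4.0.16 (limma 3.58.1): filterByExpr, TMM, robust glmQLFit and glmQLFTest, with Benjamini-Hochberg adjustment over all genes tested and a threshold of 0.05. LV was compared with the SM libraries of the same 14 rats. DESeq2 1.42.0 was an alternative, beside other scalings, filters, thinning, rat ranges, the replicate block and leaving out libraries. Values and permutation tests used Python 3.11.15, numpy 2.4.6, pandas 2.3.3 and scipy 1.17.1, and figures matplotlib 3.10.9. Scripts were tested on simulated data. No 2 libraries of a group agreed within sampling noise.

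SM, MT and LV libraries with the same number come from the same rat. Over genes, deviations from the group means had a median r of 0.0139 between SM and MT of the same rat, and of 0.0573 between SM and LV, against -0.0002 and -0.0093 between different rats. Each rat gave 1 library per kind of sample.

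The members and lists were chosen with earlier results of these data known. All members could be named with their role, levels were given for 21 set members whatever their result, and the 4 highest and 4 lowest called members were named in MT against SM and LV against SM. For LV, every library is given for Polrmt and Twnk and the lowest, median and highest for the others.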

Additional observations from a re-analysis of the deposited data

Results flagged for a closer look

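In 42 groups of LV libraries (21 members in each arm), 1 library stood apart from the other 6 of its group. Tfb2m was at 30.05 CPM in the LV library of Sed rat 20, while the others of the group lay between 33.9 and 36.1 CPM, a gap of 0.639 of the whole range. Chance flags about 1 in 20 groups.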

How the results depend on the processing

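No member was called in any training or interaction test under any alternative run, and leaving out 1 library at a time kept the members called at 0 to 0. The number of all genes called with training in SM, 28, was 131 with DESeq2, 45 with rat range as a covariate, 396 in rats 2 to 16, 1 in rats 17 to 32, and 12 to 100.0 when libraries were left out. DESeq2 called 1 gene with training in LV and 1 in the LV interaction (0 with edgeR). The MT interaction called 5 genes, 32 with DESeq2, 0 with library totals and 3 with the replicate block. The block by rat changed no call of a member and moved the other counts of all genes by little, to 11174 and 11224 in LV against SM (11301 and 11363) and to 21628 and 20069 in MT against SM, Sed and ExT rats. With 1 library left out at a time, members with an unadjusted p under 0.05 numbered 6 to 11 in SM (7 with all), 2 to 5 in MT (4) and 2 to 11 in LV (4).

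For MT against SM, thinning to the smallest library tested fewer genes and called 6442 in Sed and 4294 in ExT rats (21648 and 20092 unthinned). Members higher, 8 and 7, were 28 and 24 with library totals, and 11 in ExT rats with DESeq2 or RLE. Members lower, 39 of 50 in each arm, were 7 of 27 and 7 of 21 when thinned and 7 and 7 of 50 with library totals. The median of the members tested turned from -1.01 and -0.98 to 0.11 and 0.22 when thinned and to 0.62 and 0.65 with library totals. In LV against SM, library totals turned Mtif2 to 0.19, Mtrf1 to 0.028 and Yars2 to 0.20 in Sed rats and left 8 members lower in ExT rats (13 with TMM). The cause of these changes was not tested. MT depth, 909 to 2363 member counts per library, limits what could be detected there.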
